A study of Homo sapiens with 9 samples.

Results

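The cytoplasmic ribosomal protein genes encode the proteins of the small and the large subunit of the ribosome. They were taken as every protein-coding gene of GENCODE release 29 whose symbol begins with RPL or RPS and a digit, together with RPLP0, RPLP1, RPLP2 and RPSA, leaving out the RPS6 kinases and RPS27L. This rule, which uses no measured value, gave 90 genes, of which 87 had a row in the count table of 26186 genes and 83 had enough counts to be tested. The 83 comprised 31 small-subunit genes, 43 large-subunit genes and 3 genes of the P-stalk (together the 77 core genes), 5 paralogs of core genes (RPL22L1, RPL26L1, RPL36AL, RPL39L and RPL7L1) and RPS19BP1, which the symbol rule takes in but which encodes a protein that binds RPS19 and is no part of the ribosome. The 4 genes with a row that were not tested were the paralogs RPL3L and RPL10L, with at most 7 counts in any library, and the Y-linked copies RPS4Y1 and RPS4Y2. The remaining 3 were the read-through genes RPS10-NUDT3, RPL17-C18orf32 and RPL36A-HNRNPH2, which had no row.

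The libraries were made from polyadenylated RNA of MCF10A, an established line of non-tumorigenic human mammary epithelial cells, to ask how RNA levels change when the histone chaperone CAF-1 is suppressed. All cells had been infected with a lentivirus carrying a pLKO.1 hairpin vector, placed in 2 µg/mL puromycin 24 h later, and harvested 3 days after infection. Medium was the same throughout: DMEM:F12 with horse serum, insulin, cholera toxin, EGF, hydrocortisone and antibiotics. The control hairpin (shGFP) is directed at green fluorescent protein, and shCHAF1B-1 and shCHAF1B-2 are a pair of hairpins against CHAF1B, a subunit of CAF-1; each group had 3 libraries. The labels do not say whether the libraries of a group came from separate cultures, so p-values measure the spread between these libraries, which may be technical, and both hairpins were compared with the same shGFP libraries.

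Ribosomal proteins assemble on ribosomal RNA in the nucleolus and must be supplied in matched amounts, and surplus unassembled proteins are degraded. Their messenger RNAs are among the most abundant of a growing cell, and most begin with a C followed by a run of pyrimidines, the 5′ terminal oligopyrimidine (TOP) tract, through which mTORC1 and LARP1 control their translation and stability. Several of the proteins also act outside the ribosome: RPL5 and RPL11, bound to 5S ribosomal RNA, inhibit MDM2 when assembly is disturbed, and inherited loss of 1 copy of any of several ribosomal protein genes causes Diamond-Blackfan anaemia.

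The starts of genes that the results turn on are shown first, because this tract is the sequence feature the family shares. Each line gives 10 bases before and 20 bases from the annotated start of the RefSeq gene on GRCh38.p14, read 5′ to 3′ on the gene's own strand. Capitals mark a C followed by at least 4 pyrimidines that begins within 5 bases of the start. RPS7 and RPL22L1 are the genes that fell furthest, RPL13A, RPS3, RPS6 and RPLP0 are abundant core genes, RPL22 and RPL11 are discussed with their partners, and RPL36AL, RPL7L1 and RPL26L1 are paralogs of core genes.
RPS7 (chr2:3575250-3575279, plus strand): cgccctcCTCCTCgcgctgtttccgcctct
RPS3 (chr11:75399508-75399537, plus strand): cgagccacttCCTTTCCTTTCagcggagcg
RPS6 (chr9:19380217-19380246, minus strand): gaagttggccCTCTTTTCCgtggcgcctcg
RPL13A (chr19:49487598-49487627, plus strand): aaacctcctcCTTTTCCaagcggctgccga
RPL11 (chr1:23691769-23691798, plus strand): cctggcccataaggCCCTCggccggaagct
RPLP0 (chr12:120201092-120201121, minus strand): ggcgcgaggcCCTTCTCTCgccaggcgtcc
RPL22 (chr1:6199576-6199605, minus strand): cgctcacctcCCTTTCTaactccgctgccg
RPL22L1 (chr3:170870176-170870205, minus strand): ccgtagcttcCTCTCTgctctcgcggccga
RPL36AL (chr14:49620607-49620636, minus strand): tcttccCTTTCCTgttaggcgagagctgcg
RPL7L1 (chr6:42879606-42879635, plus strand): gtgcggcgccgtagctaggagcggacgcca
RPL26L1 (chr5:172958719-172958748, plus strand): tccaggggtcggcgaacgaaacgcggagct
RPL7L1 and RPL26L1 held no such tract, the tracts of RPS7 and RPL36AL began before the annotated start, and that of RPL11 began after it.

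Total counts ranged from 24339914 to 31819468 per library. CHAF1B itself measured 35.2, 41.0 and 36.8 CPM (counts relative to the library size, scaled with TMM) in shGFP, 2.56, 3.88 and 3.43 CPM in shCHAF1B-1 and 2.66, 3.89 and 3.07 CPM in shCHAF1B-2, with log2 fold changes of -3.50 and -3.55. All 10 basal mammary epithelial markers examined, KRT5 and TP63 among them, were detected in every library. Their summed level was 13722 to 14673 CPM in shGFP and lower in each knockdown library, at 12081 to 13131 CPM. Single markers went both ways, with log2 fold changes from -1.14 to 1.47 under shCHAF1B-1 and from -1.19 to 1.36 under shCHAF1B-2. Their medians were -0.05 and 0.01. The part of these markers in the ribosomal protein results was not tested. A list of 16 B lymphocyte markers, none at 0 in all libraries, summed to 385.6 CPM in shCHAF1B-1 replicate 3, where 16 were detected, and with 11 to 14 detected to between 2.25 and 5.85 CPM in the other libraries. Without that replicate, 74 of the 83 genes had fallen under shCHAF1B-1, against 77 with it. In bulk RNA, fewer cells of a type and less RNA per cell cannot be told apart.

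Ribosomal protein transcripts took a smaller share of all gene counts under both CHAF1B hairpins. The 87 genes together made up 4.003, 4.311 and 4.065% of the counts in the shGFP libraries, 3.12, 2.96 and 3.05% in shCHAF1B-1 and 2.98, 2.98 and 3.38% in shCHAF1B-2. Every knockdown library lay below every control library, with shCHAF1B-2 replicate 3 nearest to them. The group means were 4.13 ± 0.163% (SD, n = 3) in shGFP, 3.05 ± 0.0825% in shCHAF1B-1 and 3.11 ± 0.232% in shCHAF1B-2.

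**Figure D1:**
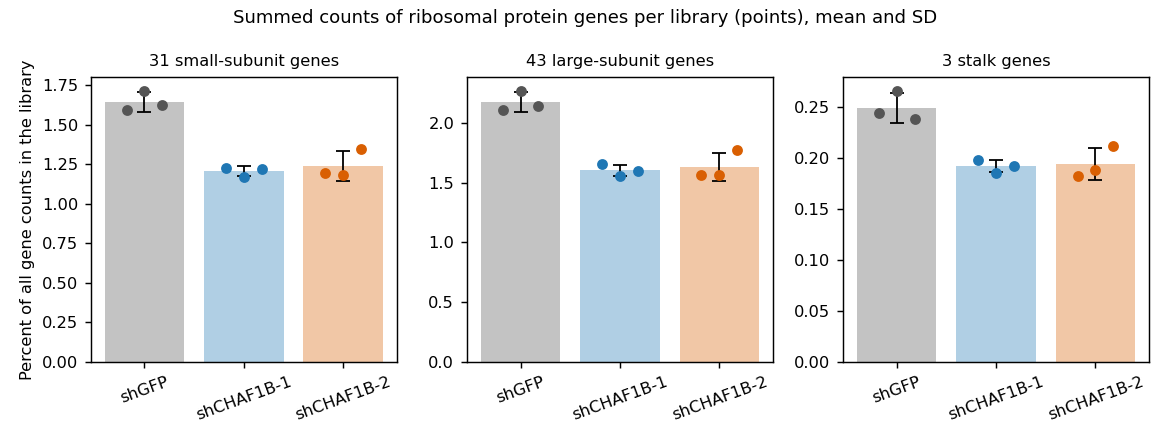
Summed counts of the small-subunit, large-subunit and stalk genes as a percentage of all gene counts in the library (points are libraries, bars the group mean, error bars the SD, n = 3). In each panel the 6 knockdown libraries lie below the 3 shGFP libraries; the mean fell from 1.65 to 1.21 and 1.24% for the small subunit, from 2.17 to 1.602 and 1.63% for the large subunit and from 0.249 to 0.192 and 0.194% for the stalk.

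The fall was spread over nearly the whole set and was moderate in size. With edgeR's quasi-likelihood test and Benjamini-Hochberg adjustment over all 16235 genes tested (adjusted p under 0.05), 77 of the 83 genes (92.8%) fell and 0 rose under shCHAF1B-1, where 25.2% of all genes fell and 27.9% rose. Under shCHAF1B-2, 74 of the 83 (89.2%) fell and 0 rose, where 24.6% of all genes fell and 26.7% rose. For the mean of both hairpins against shGFP, 78 fell (94% of the set, 27.7% of all genes) and 0 rose (29.2% of all genes).

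The median log2 fold change of the 83 genes was -0.37 for shCHAF1B-1 and -0.35 for shCHAF1B-2, so that 77.6% and 78.5% of the control level remained at the median. Over all genes tested the medians were -0.00 and -0.01. Among abundant genes the background was similar: of 2393 that averaged 100 CPM or more, 30.2% fell under shCHAF1B-1 and 26.8% under shCHAF1B-2, against 61 and 60 of the 64 ribosomal protein genes among them. For 61 of the 83 genes all 6 knockdown libraries lay below all 3 shGFP libraries, a separation found in 22.7% of all genes, and for 0 they all lay above, as they did in 25.8% of all genes. By the mean of both hairpins, 68 of the 77 core genes stood at between 70 and 90% of their shGFP level, 9 were below 70% and 0 above 90%.

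**Figure D2:**
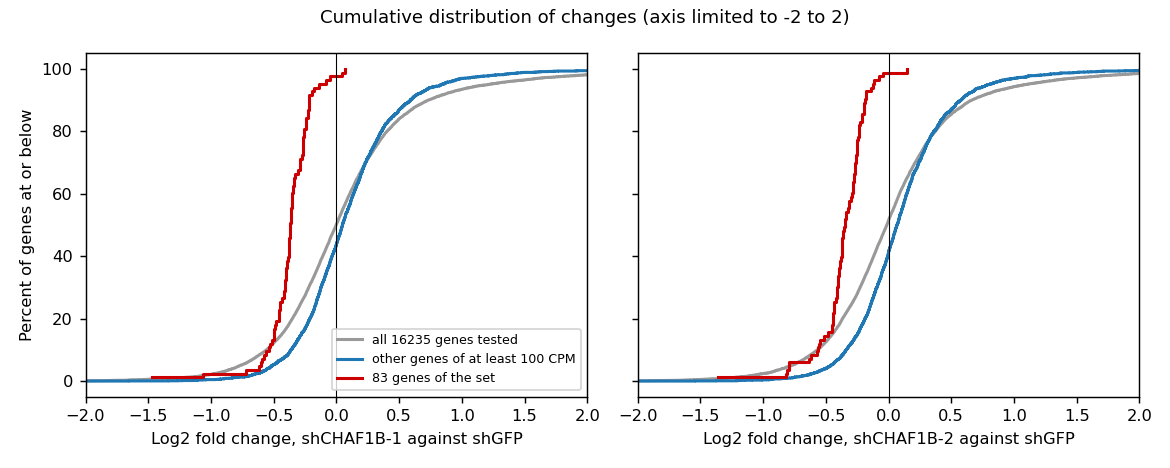
Cumulative percentage of genes (vertical axis) at or below each log2 fold change (horizontal axis, limited to -2 to 2) for the 83 genes, all 16235 genes tested and the other genes with a mean of at least 100 CPM, per hairpin. The curve of the 83 genes rises steeply around its medians of -0.37 and -0.35, whereas those of the other groups are centred near 0.

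**Figure D3:**
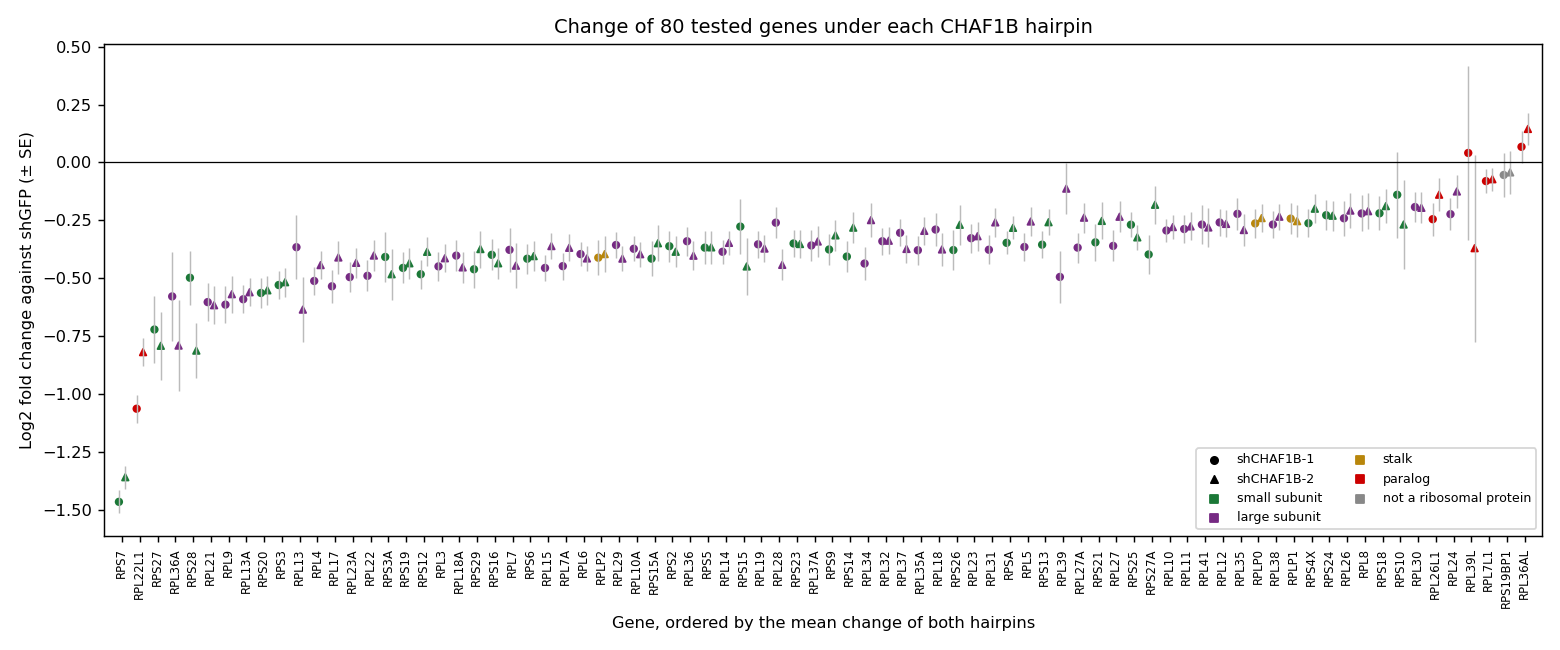
Log2 fold change against shGFP (vertical axis, bars ± SE of the fit) of 80 of the 83 tested genes under shCHAF1B-1 (circles) and shCHAF1B-2 (triangles), ordered by the mean of both and coloured by role. RPS7 and RPL22L1 lie well below the rest, most core genes lie between -0.2 and -0.6, and 4 of the 5 paralogs and RPS19BP1 lie at the upper end.

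Of the 31 small-subunit genes, 29 fell under each hairpin and 0 rose, with median log2 fold changes of -0.38 and -0.35. RPS7 was far outside the range of the others. The RPS7 protein takes part in processing the RNA of the small subunit and is among those that bind MDM2, and its gene lies on GRCh38 at chromosome 2, positions 3575205 to 3580920 on the plus strand. Its level was 147, 162 and 152 CPM in shGFP, 54.5, 55.7 and 56.7 CPM in shCHAF1B-1, and 59.0, 58.9 and 61.8 CPM in shCHAF1B-2. The groups were far apart compared with the spread within them, and the highest knockdown library was well below the lowest control.

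The log2 fold change of RPS7 was -1.47 (SE 0.0492, adjusted p = 4.0e-11, edgeR) for shCHAF1B-1 and -1.36 (SE 0.0492, adjusted p = 9.6e-11) for shCHAF1B-2, leaving 36.2% and 38.9% of the control level. Falls of at least 2-fold were called for RPS7 and RPL22L1 under shCHAF1B-1 (2.11% of all genes tested) and for RPS7 under shCHAF1B-2 (2.33% of all genes). Counted from the lowest of the 16235 fold changes it ranked 107 under shCHAF1B-1 and 135 under shCHAF1B-2. Its share of all ribosomal protein counts went from 0.387% in shGFP to 0.184% over the knockdown libraries, so that it fell relative to the family as well as to all genes.

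Processed pseudogenes of RPS7 carried few reads but moved with it. Of 6 that were tested, RPS7P1, RPS7P10, RPS7P11, RPS7P14 and RPS7P4 fell, with log2 fold changes between -2.23 and -1.501 under shCHAF1B-1, and RPS7P3 did not pass under either hairpin (-0.11, adjusted p = 0.86, and -0.75, adjusted p = 0.24, edgeR). RPS7P1, the most counted of them, had a mean of 1.99 CPM. Whether these reads came from RPS7 itself was not tested. Neighbours of RPS7 were mixed. RNASEH1, which encodes a nuclease that cuts RNA in RNA-DNA hybrids, fell by 0.50 and 0.59 on the log2 scale. Its antisense gene RNASEH1-AS1 fell by 0.61 and 0.60, but the genes overlap and reads of the strands cannot be told apart. ADI1, on the far side of RNASEH1, changed by -0.22 (adjusted p = 0.0052, edgeR) and -0.11 (adjusted p = 0.13). Further out, EIPR1 (-0.11 and -0.10) and TRAPPC12 (0.04 and -0.15) did not pass. Neither did the low-count TRAPPC12-AS1 and AC108488.1. Over all genes tested 25.2 and 24.6% fell.

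Among 9340 genes outside the family that averaged 10 CPM or more, the 5 whose log2 CPM over the 9 libraries correlated best with RPS7 were TUBB (r = 0.998), RCC1 (0.998), SCNN1G (0.998), FAM171A1 (0.998) and SNX5 (0.997). These libraries share their groups, so a gene that falls under both hairpins with little scatter will score high. TUBB, a beta-tubulin, had log2 fold changes of -1.23 and -1.20, and the epithelial sodium channel subunit SCNN1G of -1.56 and -1.46.

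Most other small-subunit genes fell by similar amounts. RPS3, at the entry of the messenger RNA channel, measured 1044, 1157 and 1075 CPM in shGFP, 790, 726 and 753 CPM in shCHAF1B-1 and 723, 731 and 835 CPM in shCHAF1B-2. Its groups did not overlap, and its log2 fold changes were -0.53 (SE 0.0623, adjusted p = 8.6e-06, edgeR) and -0.52 (SE 0.0623, adjusted p = 1.2e-05). RPS20 changed by -0.56 and -0.55 and RPS19, the gene most often mutated in Diamond-Blackfan anaemia, by -0.46 and -0.44. RPS6, the substrate of the S6 kinases, went from 1803, 1961 and 1890 CPM in shGFP to 1454, 1328 and 1456 CPM and to 1359, 1344 and 1567 CPM. That is a log2 fold change of -0.42 and -0.40, again without overlap.

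Among the smaller falls of well-counted genes of the small subunit were those of RPS18 (-0.22 and -0.19) and RPS24 (-0.23 and -0.23). The calls of RPS18 were lost under each hairpin without shGFP replicate 2 (-0.20 and -0.17), shGFP replicate 3 (-0.20 and -0.17) or shCHAF1B-1 replicate 2 (-0.20 and -0.19). RPS18 also no longer passed under shCHAF1B-1 without its replicate 1 (-0.18) and under shCHAF1B-2 without its replicate 1 or 2 (-0.17 and -0.13). RPS24 did not pass under shCHAF1B-1 without its replicate 2 (-0.19). RPS15 did not pass under shCHAF1B-1 (-0.28, adjusted p = 0.069, edgeR) and fell under shCHAF1B-2 (-0.45, adjusted p = 0.0070). Its shGFP values of 137, 158 and 102 CPM were spread widely. Under shCHAF1B-1 it passed without shGFP replicate 3 (-0.44, adjusted p = 0.00081) and without shCHAF1B-1 replicate 1 (-0.37, adjusted p = 0.027). RPS27A, which encodes a fusion of ubiquitin and a ribosomal protein, fell under shCHAF1B-1 (-0.40, adjusted p = 0.0011) but not under shCHAF1B-2 (-0.18, adjusted p = 0.081). Its value of 270 CPM in shCHAF1B-2 replicate 3 lay within the shGFP range of 253 to 278 CPM, and without that replicate its change was -0.30 (adjusted p = 0.00094). The difference between the hairpins did not pass for RPS27A (adjusted p = 0.43).

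**Figure D4:**
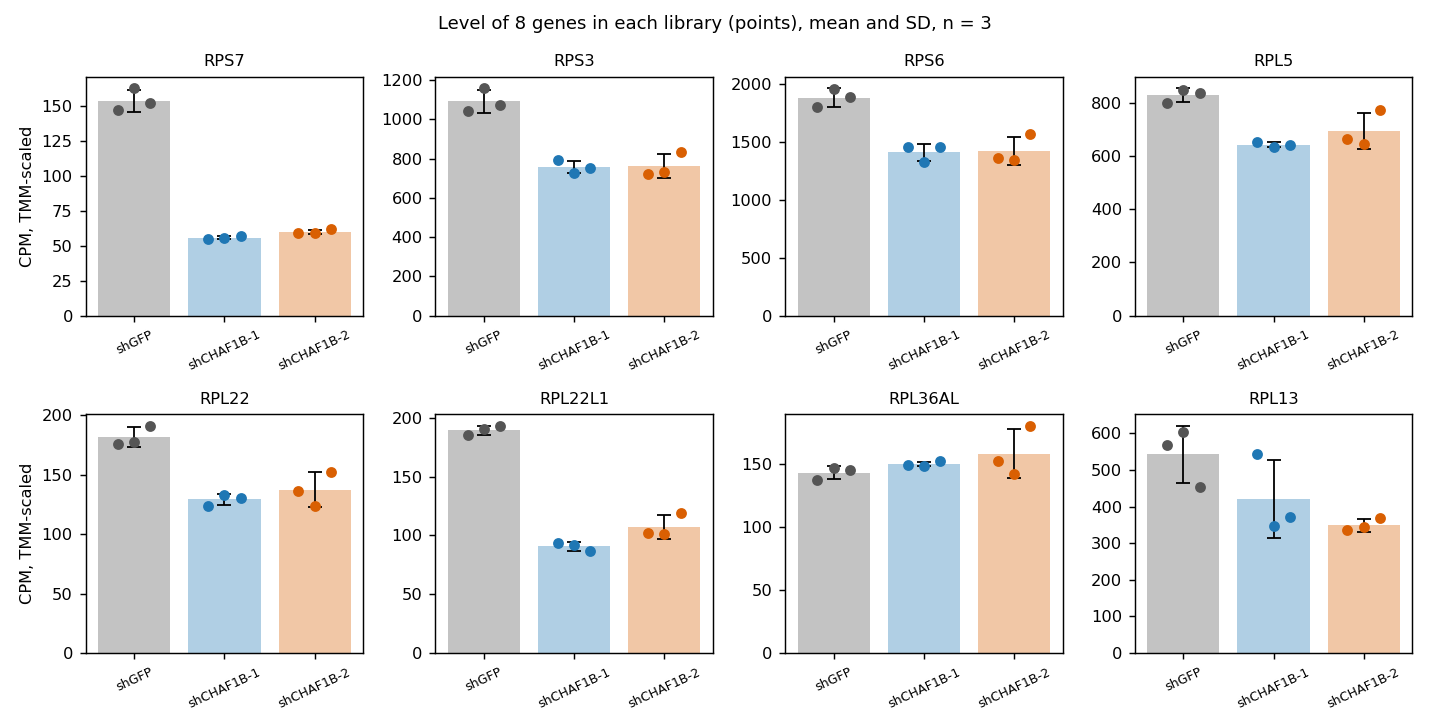
TMM-scaled CPM of 8 genes in each library (points), with the group mean (bars) and SD (error bars, n = 3). RPS7 and RPL22L1 show the widest gaps between shGFP and both hairpins, RPS3, RPS6, RPL5 and RPL22 a smaller one, RPL36AL none, and RPL13 has 1 shCHAF1B-1 library at 543 CPM among the control values.

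All 43 large-subunit genes fell under shCHAF1B-1 and 41 under shCHAF1B-2, with 0 rising and median log2 fold changes of -0.37 and -0.36. RPL13A, which also takes part in silencing certain inflammatory messenger RNAs, measured 736, 814 and 718 CPM in shGFP, 519, 486 and 500 CPM in shCHAF1B-1 and 487, 498 and 552 CPM in shCHAF1B-2. No knockdown library came near the controls. Its log2 fold changes were -0.59 (SE 0.0602, adjusted p = 2.2e-06, edgeR) and -0.56 (SE 0.0602, adjusted p = 4.0e-06). RPL4, whose protein lines the exit tunnel, had 1310, 1385 and 1355 CPM in shGFP against 963, 928 and 950 CPM and 956, 927 and 1096 CPM in the knockdowns. These correspond to -0.51 and -0.44 on the log2 scale.

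RPL5 and RPL11, the partners of 5S ribosomal RNA, both fell. RPL5 measured 799, 848 and 837 CPM in shGFP, 654, 633 and 642 CPM in shCHAF1B-1 and 665, 646 and 772 CPM in shCHAF1B-2. Only shCHAF1B-2 replicate 3 came close to the controls. The changes of RPL5 were -0.37 (SE 0.0613, adjusted p = 0.00020, edgeR) and -0.26 (SE 0.0612, adjusted p = 0.0033). RPL11, at 1052 to 1130 CPM in shGFP and 854 to 1002 CPM in the knockdown libraries, changed by -0.29 and -0.28.

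RPL22, an RNA-binding protein of the large subunit, measured 176, 177 and 191 CPM in shGFP, 124, 133 and 131 CPM in shCHAF1B-1 and 136, 123 and 153 CPM in shCHAF1B-2. The groups did not overlap and the log2 fold changes were -0.49 (adjusted p = 3.6e-05, edgeR) and -0.40 (adjusted p = 0.00021). RPL8, the large-subunit gene with the highest level, fell by 0.22 and 0.21 on the log2 scale, and RPL30 by 0.19 and 0.20. RPL8 lost its call under both hairpins without shGFP replicate 2 (-0.14 and -0.13), under shCHAF1B-1 without its replicate 2 or 3 (-0.19 for each) and under shCHAF1B-2 without its replicate 1 or 2 (-0.16 and -0.20). RPL30 lost it without shGFP replicate 2 or 3 (-0.17 for each hairpin), without shCHAF1B-1 replicate 1 or 2 (-0.15 and -0.18) and without shCHAF1B-2 replicate 1 or 2 (-0.19 and -0.15).

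Some large-subunit genes rested on uneven libraries. RPL13 measured 567, 605 and 454 CPM in shGFP and 334, 343 and 369 CPM in shCHAF1B-2, a change of -0.64 (adjusted p = 0.0018, edgeR). In shCHAF1B-1 it measured 543, 347 and 372 CPM, so that replicate 1 lay among the controls. The change of -0.37 (adjusted p = 0.040) no longer passed without any 1 of shCHAF1B-1 replicates 2 and 3, shGFP replicates 1 and 2 or shCHAF1B-2 replicate 2 (-0.36 to -0.24). DESeq2 gave an adjusted p of 0.12 for it.

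RPL39 fell under shCHAF1B-1 (-0.49, adjusted p = 0.0020, edgeR) and did not pass under shCHAF1B-2 (-0.11, adjusted p = 0.42). Its shCHAF1B-2 values were 16.1, 15.4 and 21.5 CPM against 19.4, 19.4 and 18.4 CPM in shGFP. RPL24 likewise passed under shCHAF1B-1 (-0.22, adjusted p = 0.016) and not under shCHAF1B-2 (-0.13, adjusted p = 0.15). Without shCHAF1B-2 replicate 3 both passed, at -0.28 and -0.21, and RPL24 did not pass under shCHAF1B-1 without its replicate 2 or 3 (-0.19 for each). For neither did the difference between the hairpins pass, with an adjusted p of 0.42 for RPL39 and 0.59 for RPL24.

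The stalk genes, whose proteins recruit the translation factors to the large subunit, fell by less than the medians of the subunits, apart from RPLP2. RPLP0, which anchors the stalk, measured 971, 1040 and 980 CPM in shGFP, 865, 801 and 826 CPM in shCHAF1B-1 and 807, 792 and 933 CPM in shCHAF1B-2. The groups did not overlap, and the changes were -0.26 (adjusted p = 0.0027, edgeR) and -0.24 (adjusted p = 0.0053). RPLP1 changed by -0.24 and -0.25, and RPLP2 by -0.41 and -0.40.

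The 5 tested paralogs behaved unlike each other. RPL22L1, the paralog of RPL22 (GRCh38 chromosome 3, positions 170864875 to 170870483, minus strand), fell most. It measured 185, 190 and 193 CPM in shGFP, 93.4, 91.9 and 86.5 CPM in shCHAF1B-1 and 102, 101 and 119 CPM in shCHAF1B-2. No knockdown library reached the controls. The log2 fold changes were -1.06 (SE 0.0607, adjusted p = 7.5e-09, edgeR) and -0.82 (SE 0.0604, adjusted p = 1.0e-07), leaving 47.8% and 56.7%.

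RPL22L1 fell relative to RPL22 as well. The ratio of their CPM was 1.05, 1.07 and 1.01 in shGFP, 0.753, 0.690 and 0.663 in shCHAF1B-1 and 0.751, 0.817 and 0.780 in shCHAF1B-2. Control and knockdown ratios did not overlap. The difference of RPL22L1 between the hairpins was 0.24 on the log2 scale (95% interval 0.11 to 0.38, higher in shCHAF1B-2) and did not pass over all genes (adjusted p = 0.42, edgeR). Outside the family, the 5 genes most like it over the 9 libraries were BZW2 (r = 0.998), GLUD1 (0.997), AK4 (0.997), METTL7A (0.997) and SMNDC1 (0.997). Its tested neighbours went the other way: EIF5A2, a second gene for the translation factor eIF5A, changed by 0.26 and 0.36, and the kinase gene TNIK by 1.17 and 1.13.

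RPL36AL, the paralog of RPL36A, did not fall. It measured 137, 147 and 145 CPM in shGFP, 149, 148 and 152 CPM in shCHAF1B-1 and 152, 142 and 180 CPM in shCHAF1B-2. The shCHAF1B-1 values lay just above the controls, and those of shCHAF1B-2 overlapped them. The log2 fold changes were 0.07 (95% interval -0.09 to 0.22, adjusted p = 0.44, edgeR) and 0.14 (95% interval -0.01 to 0.30, adjusted p = 0.10), and with scaling to the library total alone the first was -0.02. Without shCHAF1B-2 replicate 2 the second was 0.22 and passed (adjusted p = 0.015).

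RPL7L1, which functions in ribosome assembly, measured 121, 129 and 125 CPM in shGFP against 117, 122 and 116 CPM and 122, 111 and 124 CPM. All 3 groups overlapped, and neither change passed (-0.08 and -0.07). Scaled to the library total alone, where the median of all genes was -0.09 for each hairpin, both changes of RPL7L1 passed, at -0.17 and -0.15. RPL26L1 fell under shCHAF1B-1 (-0.25, adjusted p = 0.0099, edgeR) and did not pass under shCHAF1B-2 (-0.14, adjusted p = 0.12), where it passed without replicate 3 (-0.19, adjusted p = 0.044). RPL39L, with a mean of 0.55 CPM, had changes of 0.04 and -0.37 with standard errors of 0.374 and 0.403. RPS19BP1, the gene that is no ribosomal protein, did not pass either (-0.05 and -0.04).

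Levels of core genes differed widely, and for some of them the counts are uncertain. Per kilobase of the principal transcript, the highest shGFP levels were those of RPL8 (1760 CPM per kilobase), RPS24 (1679) and RPS18 (1430), and the lowest those of RPS10 (2.59), RPS28 (4.75) and RPL7 (6.94). Over these libraries 13 core genes had a mean under 40 CPM, among them RPS3A, RPS10, RPS26, RPS27, RPS28, RPL7, RPL9, RPL17, RPL21, RPL23A, RPL36A and RPL39. Ribosomal protein genes have many processed pseudogenes, and GENCODE lists 1132 of them by name, of which 838 had a row. The tested genes under 40 CPM had a median of 17 named pseudogenes each and the others 5.5. Reads that match several places equally well may not have been assigned to a gene, and how they were handled is not given in the sources used here.

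For several of these genes the pseudogenes held as many reads as the gene. The summed CPM of the pseudogenes was 2.29 times that of the parent for RPL7, 2.26 times for RPL9, 1.90 times for RPS10 and 1.47 times for RPS3A. The low-count core genes had lower median fold changes, of -0.50 and -0.48, than the 64 others, at -0.36 and -0.34. RPS27, at 9.67, 10.7 and 10.3 CPM in shGFP and between 4.74 and 7.10 CPM in the knockdown libraries, changed by -0.72 (adjusted p = 0.00084, edgeR) and -0.79 (adjusted p = 0.00049). RPL36A changed by -0.58 and -0.79 and lost its first call without shGFP replicate 1 or 3 or shCHAF1B-1 replicate 1 or 2 (-0.58 to -0.44), RPL21 by -0.60 and -0.62, and RPL9 by -0.61 and -0.57. RPS10, at 2.02 ± 0.205 CPM (SD, n = 3) in shGFP, was the core gene that passed under neither hairpin (-0.14 and -0.27). With single libraries left out its changes ran from -0.25 to -0.0084 and from -0.36 to -0.15.

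Pseudogenes of the family were also measured on their own. Of 267 that could be tested, 43 fell and 2 rose under shCHAF1B-1, and 28 fell and 4 rose under shCHAF1B-2, at far lower counts than the genes themselves. These are smaller shares of falling genes than the 25.2% and 24.6% over all genes tested. Rising ones were also rarer than the 27.9% and 26.7% over all genes. Against all-gene medians of -0.00 and -0.01, the median log2 fold changes of the 267 pseudogenes were -0.34 and -0.24. Among the 16 that averaged 5 CPM or more, 9 and 7 fell and RPSAP52 rose, by 1.68 and 1.64 on the log2 scale. RPSAP52 is transcribed as a noncoding RNA antisense to HMGA2, and reads of the strands cannot be told apart here.

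**Figure D5:**
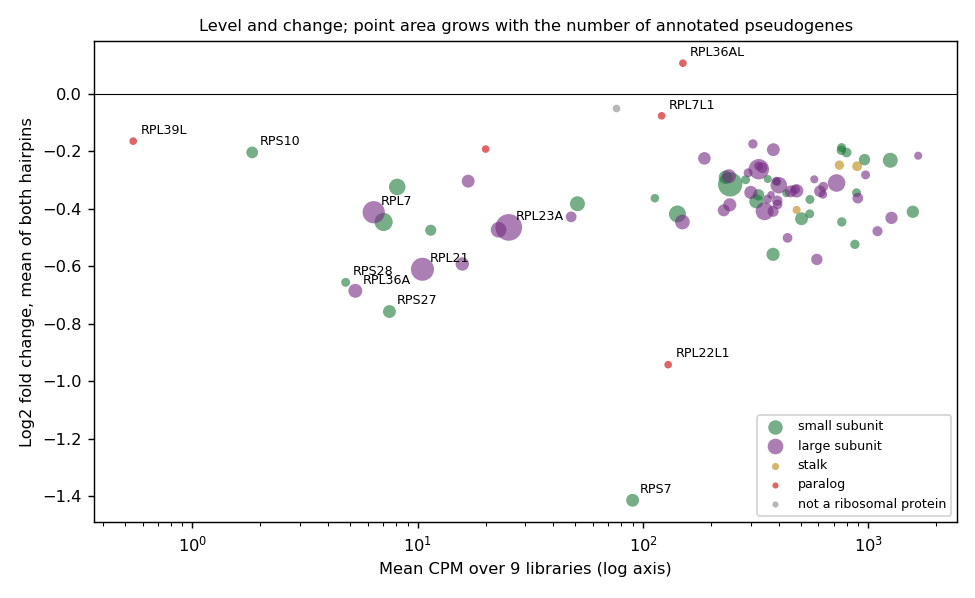
Mean log2 fold change of both hairpins (vertical axis) against the mean CPM over 9 libraries (horizontal log axis) for the 83 tested genes, coloured by role; point area grows with the number of annotated pseudogenes. RPS7 and RPL22L1 are well counted, near 90 and 129 CPM, whereas RPS27, RPS28 and RPL36A lie under 10 CPM.

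Individual libraries shifted the family together. Among the shGFP libraries replicate 2 held the highest value for 58 of the 77 core genes, and among the 6 knockdown libraries shCHAF1B-2 replicate 3 did so for 54. Over the 64 core genes with a mean of at least 40 CPM, the log2 ratio of shGFP replicate 2 to replicate 3 correlated with the GC content of the transcript (Pearson r = 0.66 across genes, which share their libraries and are not independent). For shCHAF1B-2 replicates 2 and 3 it was 0.65. For shCHAF1B-1 replicates 1 and 2 it was 0.37. Only these pairs were examined. In shGFP and shCHAF1B-2 they were the pairs whose counts differed most, so the values need not hold for other pairs. The fold change of shCHAF1B-1 against shGFP had an r of 0.05 with GC content, that of shCHAF1B-2 of -0.18 and the difference of shCHAF1B-2 minus shCHAF1B-1 of -0.48.

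The pair of hairpins was compared directly. None of the 83 genes, and 0 of all 16235 genes (0% of those tested), differed between shCHAF1B-2 and shCHAF1B-1 by edgeR after adjustment. At an unadjusted p under 0.05 there were 1800 genes, 6 of them in the set, by edgeR, 1238 and 5 by DESeq2 and 1705 and 6 by limma-voom, with 0 after adjustment by either. The median difference over the 83 genes was 0.01 on the log2 scale. For RPS7 the difference was 0.11 (95% interval -0.00 to 0.21).

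What the genes share in sequence was examined at the promoter. RefSeq promoters (GRCh38.p14, 250 bases before to 50 after the start) were matched for 62 of the 77 core genes. A C followed by at least 4 pyrimidines stood exactly at the start in 42 of the 62 (67.7%), against 4.04% of 27305 promoters and 5.41% of those of 10076 coding genes tested. Within 5 bases on either side of the start it was found in 50 of the 62 (80.6%) in 21.1% of all promoters and in 22.4% of those of the tested coding genes. The 12 core genes with no tract there had a median change of -0.38 for the mean of both hairpins and the 50 with it of -0.35. Each gene was scored at a single annotated start, so messenger RNAs of these 12 may begin elsewhere and hold a tract. Whether the change depends on the tract was not tested. Other tested coding genes with a tract at the start had a median of -0.08 (503 genes), and those without it of 0.01 (9511 genes).

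Other promoter motifs were searched as exact letters on both strands of the same 300 bases. CCGGAAGT, of the ETS type, was found in 14.5% of the 62 promoters, 4.44% of all promoters and 8.85% of those of the tested coding genes. GCCATNTT, of the YY1 type, was found in 16.1%, 6.82% and 10.2%, and the E-box CACGTG in 4.84%, 7.43% and 9.93%. For the others the direction depended on the reference: TATAAA was found in 8.06% of the 62, below the 12% of all promoters and above the 5.63% of tested coding genes, and GGGCGG, of the SP1 type, in 54.8%, above 44.6% and below 70.2%. A match is a description of these letters and not a binding site. RPS7 also holds the 7-mer AAGCCGT in its principal transcript, which was looked up because it had stood out by fold change in an earlier scan of these data. Its overlapping 7-mer AGCCGTC came from the same scan, as did GCCGTCA. RPL10 and RPL31 hold AAGCCGT too and changed by -0.29 and -0.28 and by -0.38 and -0.26. At least 1 of these 7-mers was present in 10 of the 83 genes (12%) and in 17.9% of all tested genes. Members with any of them, RPS7 included, had medians of -0.39 and -0.38, those without of -0.36 and -0.35. Over all genes tested the medians were -0.03 and -0.07 with any of them and 0.00 and -0.00 without. Because the 7-mers were picked by fold change in these data, these medians are descriptive and no test of them.

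Genes that act with the ribosomal proteins were described from fixed lists. Of ribosome-linked genes outside the symbol rule, those that fell under each hairpin included FAU (-0.18 and -0.24), which encodes a ribosomal protein fused to a ubiquitin-like sequence, the small-subunit scaffold RACK1 (-0.21 and -0.21) and the RPS27 paralog RPS27L (-0.37 and -0.26). Of the 19 ribosomal protein genes listed for Diamond-Blackfan anaemia, which are members of the set, 18 fell under each hairpin, with medians of -0.38 and -0.30. That share is near the 92.8 and 89.2% of the whole set that fell, so it sets these genes apart from the family in no way.

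Translation factors and other coding genes known for a TOP tract moved the same way. Of 15 tested, 13 fell under shCHAF1B-1 and 12 under shCHAF1B-2, with 0 rising and medians of -0.28 and -0.23. Over all genes tested 25.2 and 24.6% fell. NPM1, a nucleolar chaperone, changed by -0.56 and -0.45, HNRNPA1 by -0.53 and -0.51, NAP1L1 by -0.56 and -0.46 and the elongation factor EEF2 by -0.44 and -0.54. EIF4A2 (0.01 and -0.02) and TPT1 (-0.06 and 0.10) did not pass under either hairpin, and EEF1A1 passed under shCHAF1B-1 only (-0.20, then -0.10), a difference that was not called between the hairpins.

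Noncoding host genes of small nucleolar RNAs, which also begin with a TOP tract, had larger changes. All 11 tested fell under each hairpin, where 25.2 and 24.6% of all genes fell, with medians of -0.59 and -0.57. GAS5 changed by -0.68 and -0.57, SNHG8 by -0.75 and -0.70, SNHG16 by -0.59 and -0.59 and SNHG5 by -0.67 and -0.50. Within the family, the 28 core genes with a small nucleolar RNA inside the gene had medians of -0.39 and -0.38, and the 49 without one of -0.37 and -0.35.

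Regulators of TOP messenger RNAs were counted against all genes tested, of which 27.9 and 26.7% rose and 25.2 and 24.6% fell under the hairpins. Of 17 genes for mTORC1 and TOP regulators, 4 rose and 5 fell under each hairpin, with medians of -0.02 and -0.00, shares near that background. EIF4EBP2, a repressor of cap-dependent translation, fell (-0.68 and -0.67), as did AKT1S1, an inhibitor of mTORC1 (-0.39 and -0.49). RHEB, the activator of mTORC1, rose (0.46 and 0.49), as did RPS6KB1 (0.32 and 0.36). LARP1 (0.09 and 0.06) and MTOR (0.14 and 0.11) did not pass. Among 9 RPS6 kinase genes 5 rose and 3 fell under shCHAF1B-1 and 4 and 3 under shCHAF1B-2, led by RPS6KC1 (1.00 and 0.96) and RPS6KA1 (0.59 and 0.56).

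Chaperones and importers of ribosomal proteins mostly did not pass. Of 12 tested, 1 rose and 3 fell under shCHAF1B-1 and 2 rose and 3 fell under shCHAF1B-2, with medians of -0.01 and 0.03. Over all genes tested 27.9 and 26.7% rose and 25.2 and 24.6% fell. The 3 that fell under each hairpin were NAP1L1, which is also in the TOP list, BCCIP, needed for the large-subunit protein RPL23 (-0.39 and -0.29), and the importin IPO9 (-0.18 and -0.18). EIF6, which keeps the subunits apart, rose under shCHAF1B-1 (0.18), and HEATR3 (0.24), which carries RPL5, and ZNF622 (0.20) under shCHAF1B-2. Of the 12 genes 0 differed between the hairpins after adjustment, so these rises are not shown to be particular to a hairpin.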

How the data were processed

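The deposited table of the authors gave unnormalized counts for each gene in 9 libraries of MCF10A. The submitters' processing notes list, without roles, DESeq2 1.18.1, HTSeq 0.8.0, STAR 2.5.3a and the builds mm10 and hg38. Counting settings are not given in the sources used here, and the library kit, per the labels TruSeq version 2, does not mark strand, so genes that overlap or have near-identical copies are uncertain.

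Genes were matched to GENCODE release 29 by identifier without version (26149 of 26186, 25293 with the same version). The filter filterByExpr (minimum count 10, minimum total 15, proportion 0.7) left 16235 genes. TMM-scaled counts of all 9 libraries entered 1 quasi-likelihood fit in edgeR 4.0.16 (R 4.3.3) with group as the only term, with a biological coefficient of variation of 6.24%. The threshold was 0.05 for p adjusted over all genes tested (Benjamini-Hochberg). CPM are TMM-scaled. Replicates differed beyond sampling noise (chi-square per degree of freedom 4.09 to 14.2). The steps were tested on simulated data of 13130 genes, 50 of them changed at each size. They recovered 32% of 1.2-fold, 72% of 1.5-fold, 96% of 2-fold and 100% of 3-fold changes, and 8 unchanged genes were called. In the data 27.9% of all genes rose and 25.2% fell under shCHAF1B-1, a far larger share than was changed in the simulation. The adjustment for many tests acts differently there, so these rates need not hold for the fit of the data. A gene that did not pass may still have changed by a small amount. Alternatives were RLE, upper-quartile and library-total scaling, DESeq2 1.42.0, limma-voom 3.58.1, other filters, only the groups compared, a replicate block, stricter thresholds, the core genes only and leaving out each library. Summaries were made in Python 3.11.15.

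The members and lists were chosen with earlier results of these data known. Genes were named by rule: CHAF1B, RPS7, RPL22L1, RPL5, RPL11, the 6 members with the largest smaller fall of the hairpins, the paralogs and RPS19BP1, the 3 highest and 3 lowest per length, and up to 4 per list by p. RPS7 and RPL22L1 were in this rule because they were already known as outliers in these data, so their ranks and p-values are descriptive. Other members, such as RPS3, RPL13A, RPL13, RPL22 and RPL39, and the neighbouring genes, were chosen after their values were seen. Promoters came from RefSeq on GRCh38.p14. Sex-linked copies are not reported. Values of some other genes are not reported here.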

Additional observations from a re-analysis of the deposited data

How the results depend on the processing

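Under every setting tried the falling members outnumbered the rising ones, and no member called in the full fit changed sign when a library was left out. With 1 library left out, 65 to 77 of the 83 members fell under shCHAF1B-1 and 64 to 78 under shCHAF1B-2; 0 rose except without shCHAF1B-2 replicate 2, where 1 (RPL36AL) rose under shCHAF1B-2, a range of 0 to 1. Other scalings, tools and filters gave 76 to 79 and 71 to 78 falling members, an adjusted p of 0.01 gave 67 and 63, and a minimum change of 1.2-fold gave 63 and 56. With the replicate number as a block 76 and 73 fell. Deviations of libraries with the same number correlated at -0.35 to 0.25, and those with different numbers at -0.55 to 0.57. With so few libraries per group this cannot settle whether the numbers pair the libraries. Changes that were not called turned sign for RPL36AL under shCHAF1B-1 with the library total alone (-0.0192), for RPL39L under shCHAF1B-1 with the library total alone (-0.0443), limma-voom (-0.0431) and single libraries left out (-0.2232 to 0.3501), and for RPS19BP1 without shGFP replicate 2 (0.0483 and 0.0597; over all libraries left out -0.1585 to 0.0483 and -0.1468 to 0.0597); the cause was not tested. Depth limits RPL39L and RPS10, with a mean of 0.55 and 1.84 CPM.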
